A study of Mus musculus with 16 samples.

Results

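Transcripts of 9 enzymes that make cysteine from homocysteine, build glutathione and use it against peroxides were followed in brown adipose tissue (BAT) and gonadal white adipose tissue (gWAT) of Adipo-Pgam1 KO mice, in which a gene of glycolysis is deleted in adipocytes. The genes were chosen by name as the steps of transsulfuration and of the glutathione cycle: Cbs and Cth, then Gclc, Gclm and Gss, then Gsr, then Gpx1, Gpx3 and Gpx4. They are 9 of the 22911 genes that had a named probe on the array. Each gene was read from the brightest of the probes whose RefSeq accession leads to it, and all 9 probes were well above background on all 16 arrays.

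The arrays compared 4 groups of 4 samples from male C57BL/6NCrSlc mice, and the labels do not say whether BAT and gWAT came from the same animals. Adipo-Pgam1 KO animals carried Adipoq-Cre and Pgam1 flox/flox, while their littermate controls carried Pgam1 flox/flox without the Cre, so the floxed alleles were shared by every animal. The Cre runs from the adiponectin promoter, which acts in adipocytes, so macrophages and vessels of the same tissue are not its target. All animals were 16 weeks old except replicate 4 of the KO group in each tissue, which was 14 weeks old. Nothing in the labels ties an array to a separate extraction, so p-values measure the spread between these samples.

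Transsulfuration carries sulfur from methionine to cysteine: cystathionine beta-synthase (Cbs) joins homocysteine to serine, and cystathionine gamma-lyase (Cth) releases cysteine. Glutamate-cysteine ligase, made of a catalytic chain (Gclc) and a modifier chain (Gclm), then links cysteine to glutamate, and glutathione synthetase (Gss) adds glycine. Glutathione peroxidases spend the product on hydrogen peroxide and lipid peroxides, glutathione reductase (Gsr) restores it with NADPH, and serine, which Cbs needs, branches from glycolysis at the substrate of phosphoglycerate mutase, the enzyme that Pgam1 encodes. The liver is a main site of transsulfuration.

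RefSeq promoter sequences (build GRCm38.p6) were available for 6 of the 9 genes, namely Cbs, Gclm, Gss, Gpx1, Gpx3 and Gpx4, the last with 4 start sites, and Cth, Gclc and Gsr are given by name only. The 250 bases before the start site are shown for a modifier of glutathione synthesis that differed between gWAT groups, for the synthetase that was higher in BAT of KO mice, and for the peroxidases with the largest BAT changes of the 9. They lie at chr3:122245307-122245556 on the plus strand for Gclm, chr2:155592811-155593060 on the minus strand for Gss, chr9:108338830-108339079 on the plus strand for Gpx1 and chr11:54902604-54902853 on the plus strand for Gpx3. Capitals mark a match to TGACNNNGC, the core of the antioxidant response element, read here on the opposite strand.
Gclm: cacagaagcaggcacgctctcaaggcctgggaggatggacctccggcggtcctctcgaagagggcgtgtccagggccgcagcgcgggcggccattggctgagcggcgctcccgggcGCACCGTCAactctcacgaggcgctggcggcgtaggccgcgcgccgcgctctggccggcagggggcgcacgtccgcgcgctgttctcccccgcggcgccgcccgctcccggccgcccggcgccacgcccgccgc
Gss: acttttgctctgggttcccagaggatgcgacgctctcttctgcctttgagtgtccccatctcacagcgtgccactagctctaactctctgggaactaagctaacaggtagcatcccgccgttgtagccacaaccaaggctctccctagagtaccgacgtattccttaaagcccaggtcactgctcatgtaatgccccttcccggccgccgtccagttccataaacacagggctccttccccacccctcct
Gpx1: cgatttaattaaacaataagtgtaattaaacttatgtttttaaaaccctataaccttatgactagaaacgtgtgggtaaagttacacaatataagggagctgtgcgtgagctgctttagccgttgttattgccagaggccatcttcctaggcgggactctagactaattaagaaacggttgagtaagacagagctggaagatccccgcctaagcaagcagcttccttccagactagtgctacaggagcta
Gpx3: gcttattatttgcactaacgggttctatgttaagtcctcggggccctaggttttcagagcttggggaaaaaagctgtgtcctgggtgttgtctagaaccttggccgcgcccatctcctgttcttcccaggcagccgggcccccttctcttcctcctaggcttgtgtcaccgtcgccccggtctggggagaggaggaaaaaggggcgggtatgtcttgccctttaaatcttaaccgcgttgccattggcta
The match in Gclm began 134 bases before the start site (position -134), and Gclm was the only one of the 6 genes to hold one. Such a match stood in 3338 of 32851 promoters of the same length (10.2%) with both strands searched. The core of the amino acid response element, TGATGNAA, stood in 3.45% of promoters and in none of these 6 genes. The matches describe letters in these windows and nothing about the factors that read them. Base composition set the windows apart, since the Gclm window held 78.4% G or C and 41 CpG dinucleotides, the Gss window 56.0% and 10, the Gpx3 window 55.2% and 11, and the Gpx1 window 42.0% and 7, against medians of 52.4% and 6 over all promoters.

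Values below are levels on a log2 scale: the intensity of a probe over the 75th percentile of its array, so that 0 is the 75th percentile and 1 unit is a doubling. Differences were tested with limma across all genes that were well above background on every array of at least 1 group, and a gene was called at an adjusted p (Benjamini-Hochberg over all genes tested) under 0.05. With 4 arrays against 4, the smallest two-sided p of an exact permutation test is 0.0286. Levels of different genes come from different probes and are not set against each other. In bulk tissue, fewer cells of a type and less RNA per cell cannot be told apart.

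Pgam1, the targeted gene, read 7.94, 7.93, 8.07 and 7.82 on the BAT control arrays and 6.20, 6.13, 6.03 and 6.43 on the BAT KO arrays, a difference of -1.74 (SE 0.11, adjusted p = 1.11e-05). In gWAT it went against the label: the control arrays read 5.07, 5.15, 5.67 and 5.56 and the arrays labelled Adipo-Pgam1 KO 6.50, 6.42, 6.38 and 5.95, a difference of 0.95 (SE 0.19, adjusted p = 0.0139). The gWAT call was kept in 14 of the 18 settings other than leaving out 1 array, with differences of 0.61 to 1.34. It was lost with slide as a fixed block, with the replicate block, and without the arrays high in epididymal or liver genes. Whether either Pgam1 probe lies in the floxed sequence is not known here. Every direction given for gWAT therefore rests on the label. The paper reports Pgam1 lower in gWAT of these mice by PCR and Western blot, and Ucp1 and Cpt1b higher there by PCR. Of 10 thermogenic genes 7 were tested in gWAT. Of these, 6 were well above background on all 4 control arrays, and the remaining gene entered the test through the labelled KO arrays alone. On the labelled KO arrays 5 of the 7 were called higher, beside 9.99% of all genes. Among these 5, group means were 2.85 and 6.26 for Cidea and -2.36 and 1.88 for Cpt1b. The other 2 tested lay below 0 and were not called (lowest -0.52), and Dio2, Ucp1 and Zic1 were not tested.

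Several arrays carried signal of genes typical of other tissues. The summed intensity of 8 skeletal muscle genes was 92.9 times the 75th percentile on replicate 1 and 16.7 times on replicate 3 of BAT KO. The other BAT arrays held 0.533 to 1.60. On gWAT arrays this sum was 3.5, 7.86, 21.9 and 24.8 in controls and 55.9, 43.2, 58.3 and 29.8 on labelled KO arrays. Of 5 muscle genes tested between the gWAT groups 0 were called. Epididymal genes summed to 6.49 on gWAT control replicate 1 and 5.13 on labelled KO replicate 3, against 0.794 to 1.78 on the other gWAT arrays. The widest difference was in 10 genes of plasma proteins made by the liver (Alb, Apoa1, Ttr, Ahsg, Fgb, Fgg, Ambp, Hpx, F2 and Apoh), a list drawn up after its values were seen. Their sum on the gWAT control arrays was 80.7, 706, 16.9 and 12.2, and on the labelled KO arrays 2.18, 222, 150 and 35.4, while no BAT array exceeded 0.622. All 10 were well above background on 7 of the 8 gWAT arrays and 3 of them on labelled KO replicate 1. Between the gWAT groups their differences ran from -0.75 to 0.37, and none passed in limma. Slides also followed the groups, with BAT controls 1 to 3 on 1 slide, BAT control 4, all BAT KO and gWAT controls 1 to 3 on another, and gWAT control 4 with all labelled KO arrays on the last.

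Markers of other cell types and of adipocytes moved with the genotype in BAT. Their BAT counts stand beside 27.5% of all genes higher and 34% lower. Of 10 macrophage genes 9 were higher in KO, with sums of 30.2 to 44.5 in controls and 114 to 169 in KO, and 8 of 9 adipocyte genes were lower, with sums of 2860 to 3410 and 928 to 1280. Of 5 stromal cell genes 4 were higher, with sums of 15.1 to 26 and 35.2 to 62.8. Thermogenic genes fell as well (7 of 10), from sums of 4350 to 4700 to sums of 1430 to 2360. In gWAT the thermogenic sum was 27.0 to 62.6 in controls and 129 to 337 on labelled KO arrays. There 5 of 7 tested thermogenic genes were higher, of which 6 were well above background on all 4 control arrays. Of 10 macrophage genes 2 were higher, with sums of 78.1 to 111 and 86.0 to 243. Called lower were 2 of 9 adipocyte genes and 1 of 5 stromal cell genes. These gWAT counts stand beside 9.99% of all genes higher and 7.85% lower. The part of these shifts in the enzyme values below was not tested.

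In BAT of Adipo-Pgam1 KO mice transcripts of Gpx1, Gpx3 and Gpx4 were lower and those of Gclc and Gss higher, and the other 4 genes did not pass the test. Another scaling of the arrays turned the sign of Gpx4 or of Gclc. The Gss call was lost with scaling to the genes Actb and Rplp0 (0.06). The main test thus called 5 of 9 genes, beside 61.5% of all 14280 genes tested (27.5% higher and 34% lower). The median change was -0.73 against -0.08 over all genes. Control and KO arrays did not overlap for 5 of the 9, beside 57.1% of all genes. In gWAT, Gclm and Gpx4 were higher and Cbs and Gpx3 lower on the arrays labelled KO. That makes 4 of 9 called beside 17.8% of 14149 genes (9.99% higher and 7.85% lower), with 4 not overlapping beside 24.2%, and the median change was 0.12 against 0.05.

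**Figure D1:**
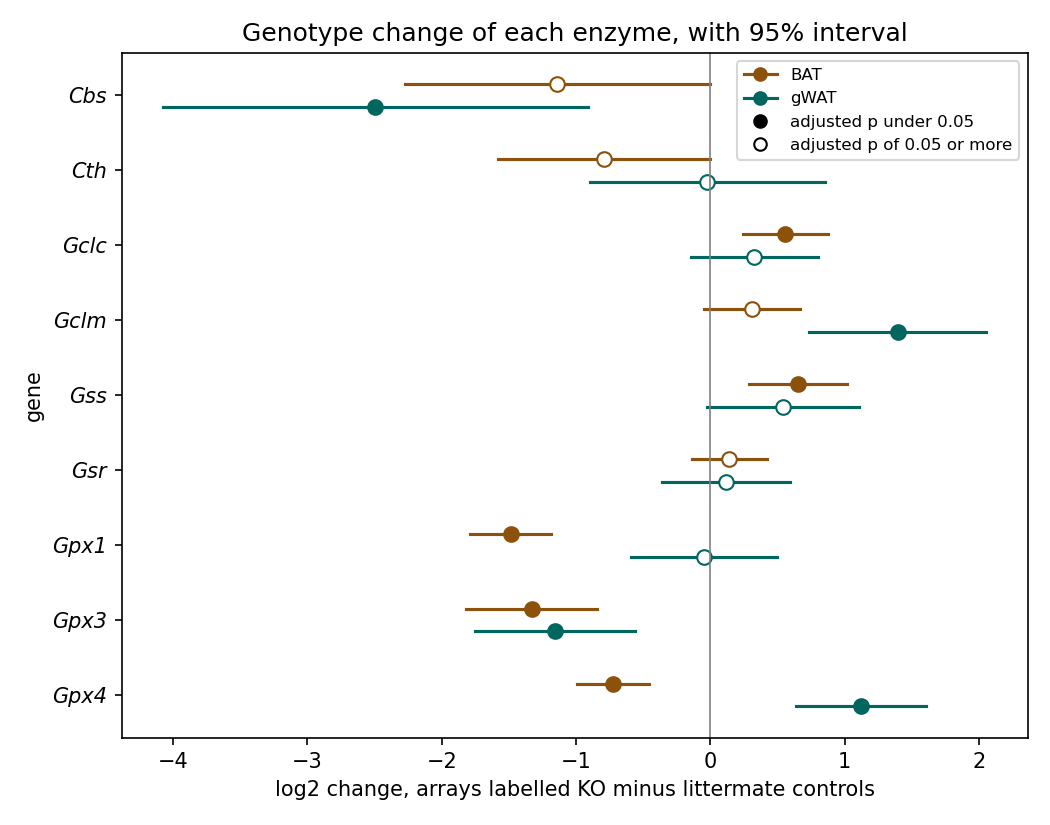
Change of each enzyme transcript (horizontal axis, log2 intensity of arrays labelled KO minus littermate controls) by gene (vertical axis), with lines for the 95% interval, brown for BAT, green for gWAT and filled points for an adjusted p under 0.05. Gpx1 and Gpx4 sit at -1.49 and -0.73 in BAT and at -0.04 and 1.12 in gWAT, while Gpx3 lies left of 0 in both. With quantile normalization the BAT value of Gpx4 is 0.00055.

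Cbs, the entry step of transsulfuration, was the member with the widest spread. BAT control arrays read -1.50, 0.03, -2.81 and -1.38, and BAT KO arrays -2.76, -2.27, -2.64 and -2.55. The KO arrays lay close together at the low end of the control range, control replicate 3 lay below them all, and the difference of -1.14 (SE 0.50, 95% interval -2.28 to -0.00435) had an adjusted p of 0.0753. Without control replicate 3 the difference was -1.60 and passed (adjusted p = 0.0064).

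In gWAT, Cbs read 1.79, 3.63, 2.35 and 1.89 in controls and -1.62, 1.62, 0.53 and -0.84 on the arrays labelled KO. Each control array stood above each labelled KO array, and the difference was -2.50 (SE 0.70, 95% interval -4.08 to -0.91, adjusted p = 0.0408), a level 0.177 times that of controls. The order of the labelled KO arrays (replicates 2, 3, 4, 1 from high to low) was also their order in the liver genes, and control replicate 2, the highest in Cbs, was the highest in liver genes. The other controls did not follow that order, since replicate 1, next in liver genes, was the lowest in Cbs. With the mean log2 level of the liver genes as a covariate the Cbs difference was -2.44 (adjusted p = 0.011), and without the 4 arrays highest in liver genes, which left 2 against 2, it was -3.36 (adjusted p = 0.0401). The call was kept in 1 of the 8 fits that left out a single array, with differences of -3.06 to -1.98, and it was lost with slide as a fixed block (-1.97, adjusted p = 0.42).

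Cth, which completes cysteine synthesis, did not pass in either tissue. BAT controls read -0.62, -0.04, -0.80 and -1.15, and BAT KO -1.12, -1.42, -0.86 and -2.38. The groups overlapped, KO replicate 4 was the lowest of all, and the difference was -0.79 (SE 0.35, adjusted p = 0.0753). It reached -1.25 (adjusted p = 0.0313) without both BAT KO arrays high in muscle genes.

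gWAT controls read -0.18, 1.17, 0.12 and -0.76 for Cth and the arrays labelled KO 0.44, 0.24, 0.07 and -0.49. The difference was -0.02 (SE 0.39, 95% interval -0.90 to 0.85). Control replicate 2 was the highest array here too, and without it the difference was 0.34 (adjusted p = 0.465).

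**Figure D2:**
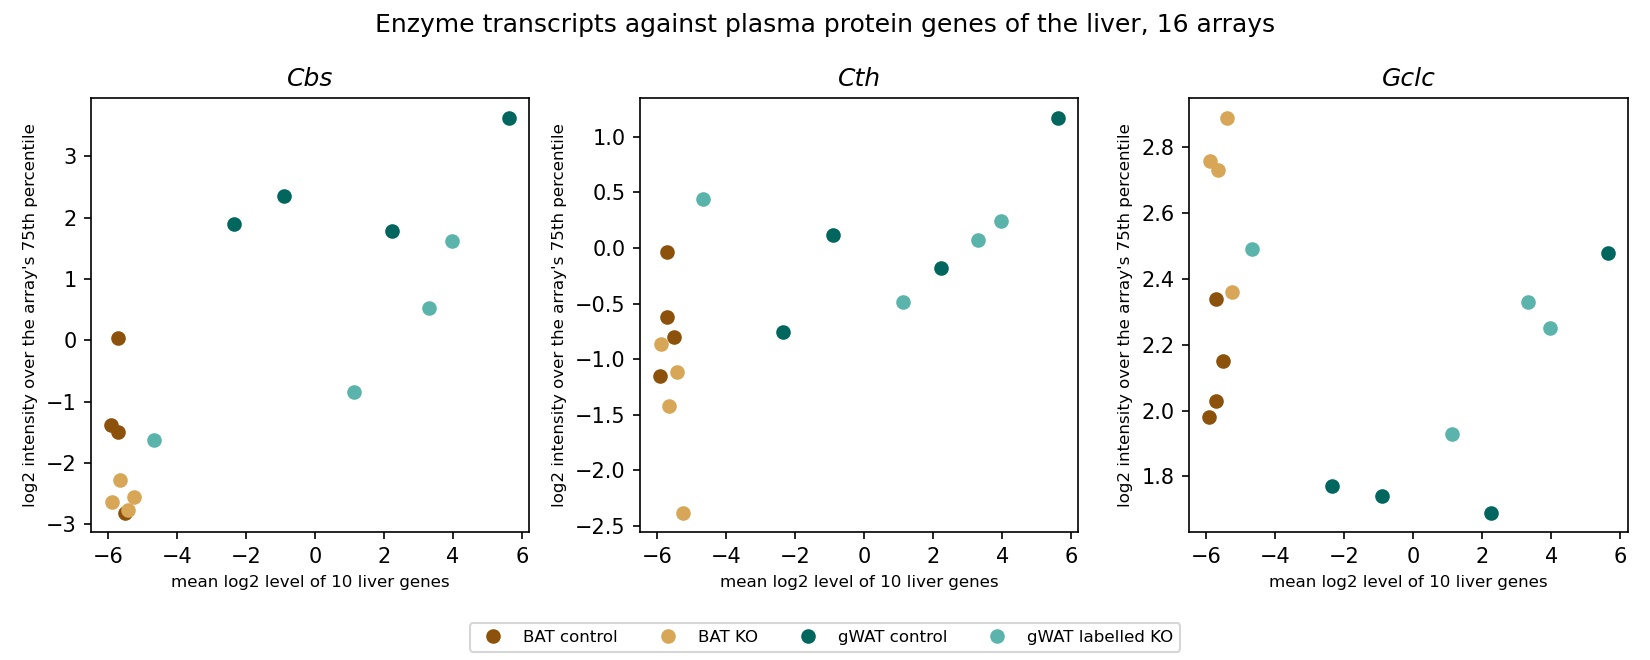
Level of Cbs, Cth and Gclc (vertical axes, log2 intensity over the 75th percentile of the array) against the mean log2 level of 10 liver plasma protein genes (horizontal axes) on 16 arrays, 4 per group. The BAT arrays sit at -5.91 to -5.25 on the horizontal axis and the gWAT arrays between -4.67 and 5.63, and gWAT control replicate 2, at the right edge, is the highest gWAT control array in Cbs, Cth and Gclc.

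Gclc, the catalytic chain of the enzyme that sets the pace of glutathione synthesis, read 2.34, 2.03, 2.15 and 1.98 in BAT controls and 2.89, 2.73, 2.76 and 2.36 in BAT KO. The lowest KO array, replicate 4, stood just above the highest control. The transcript rose by 0.56 (SE 0.14, 95% interval 0.24 to 0.87, adjusted p = 0.00736), or 1.47-fold, and by 0.42 (adjusted p = 0.0743) without both arrays high in muscle genes. In gWAT the controls read 1.69, 2.48, 1.74 and 1.77 and the labelled KO arrays 2.49, 2.25, 2.33 and 1.93. Control replicate 2, the array highest in liver genes, stood alone among the controls, and the difference of 0.33 (SE 0.21, 95% interval -0.14 to 0.80) had an adjusted p of 0.295.

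Gclm, the modifier chain, was the synthesis gene that differed in gWAT. Controls read 2.59, 2.71, 2.72 and 2.73, a range narrower than that of any other member in that group, and the labelled KO arrays read 4.98, 3.86, 4.07 and 3.42. Each labelled KO array lay above each control, from replicate 4 at the low end to replicate 1 at the high end. The difference was 1.40 (SE 0.29, 95% interval 0.74 to 2.06, adjusted p = 0.0159), or 2.63-fold. It was 1.38 (adjusted p = 0.0133) with liver genes as a covariate, 1.37 (adjusted p = 0.0797) without both arrays high in epididymal genes and 1.36 (adjusted p = 0.209) with slide as a fixed block. In BAT, Gclm read 3.58, 3.54, 3.56 and 3.38 in controls and 4.15, 3.79, 3.96 and 3.41 in KO. KO replicate 4 fell among the controls, and the difference of 0.31 (SE 0.16) did not pass (adjusted p = 0.112). It passed without that array, at 0.45 (adjusted p = 0.0126).

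Gss, which adds glycine to finish glutathione, read 4.45, 4.41, 4.13 and 3.74 in BAT controls and 4.90, 4.76, 4.79 and 4.90 in BAT KO. The KO arrays lay close together (SD 0.07) and above all controls. Gss rose by 0.65 (SE 0.16, 95% interval 0.29 to 1.02, adjusted p = 0.0066), or 1.57-fold, and it stood 1.09 above control replicate 4, the lone control that shared a slide with the KO arrays. A dimmer second Gss probe changed by 0.88 in BAT and 0.56 in gWAT. In gWAT the brighter probe read 2.75, 3.26, 3.19 and 3.37 in controls and 4.22, 3.73, 3.74 and 3.05 on labelled KO arrays. Replicate 4 lay within the control range, and the difference of 0.54 (SE 0.25, 95% interval -0.02 to 1.11) had an adjusted p of 0.158. Without that array it was 0.75 (adjusted p = 0.0346).

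Gsr, which returns oxidized glutathione to its reduced form, did not pass in either tissue. BAT controls read 2.88, 2.92, 3.10 and 2.76 and BAT KO 3.29, 3.10, 2.95 and 2.89, a difference of 0.14 (95% interval -0.14 to 0.42, adjusted p = 0.34). gWAT controls read 3.50, 3.67, 3.65 and 3.86 and labelled KO arrays 4.23, 3.87, 3.83 and 3.21, a difference of 0.12 (95% interval -0.36 to 0.59, adjusted p = 0.739). The labelled KO arrays spanned the control range on both sides, from replicate 4 below it to replicate 1 above.

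Gpx1, the abundant cytosolic and mitochondrial peroxidase, showed the largest BAT change of the 9. Controls read 7.82, 7.75, 7.98 and 7.82 and KO 6.22, 6.33, 6.18 and 6.71. The gap between the nearest arrays exceeded the whole range of either group. Gpx1 fell by 1.49 (SE 0.13, 95% interval -1.79 to -1.19, adjusted p = 3.45e-05), to 0.357 times the control level. In gWAT it read 7.20, 8.09, 7.60 and 8.37 in controls and 7.82, 7.83, 7.77 and 7.65 on labelled KO arrays. The labelled KO arrays all fell inside the wider control range, and the difference was -0.04 (95% interval -0.59 to 0.50, adjusted p = 0.918).

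Gpx3, the secreted plasma peroxidase, was lower in both tissues. BAT controls read 6.48, 7.10, 6.35 and 7.10 and KO 5.41, 5.34, 5.17 and 5.80. The groups did not overlap, and Gpx3 fell by 1.33 (SE 0.21, 95% interval -1.82 to -0.84, adjusted p = 0.000726), to 0.398 times the control level. gWAT controls read 5.09, 6.04, 4.77 and 5.67 and labelled KO arrays 4.14, 4.29, 4.41 and 4.10. Controls spread widely and the labelled KO arrays hardly at all, and the difference was -1.16 (SE 0.26, 95% interval -1.75 to -0.56, adjusted p = 0.021). The gWAT call was lost without labelled KO replicate 1 (-1.13, adjusted p = 0.0623) or replicate 2 (-1.18, adjusted p = 0.051), and in 7 of 18 other settings, among them array median scaling (-1.04, adjusted p = 0.0514) and spike-in scaling (-0.77).

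Gpx4, which reduces lipid peroxides within membranes, moved in opposite directions under the 75th percentile scaling, though quantile normalization left no fall in BAT. BAT controls read 9.12, 8.99, 9.30 and 9.08 and KO 8.34, 8.34, 8.26 and 8.64, and the groups did not overlap. Gpx4 fell by 0.73 (SE 0.12, 95% interval -0.99 to -0.46, adjusted p = 0.000731), to 0.604 times the control level. gWAT controls read 7.19, 7.52, 7.92 and 8.04 and labelled KO arrays 8.94, 8.92, 8.87 and 8.42. Replicates 1 to 3 of the labelled KO group lay close together, replicate 4 stood lower, and all exceeded the controls. The difference was 1.12 (SE 0.21, 95% interval 0.64 to 1.61, adjusted p = 0.0125), or 2.18-fold, and 0.75 (adjusted p = 0.267) with slide as a fixed block.

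**Figure D3:**
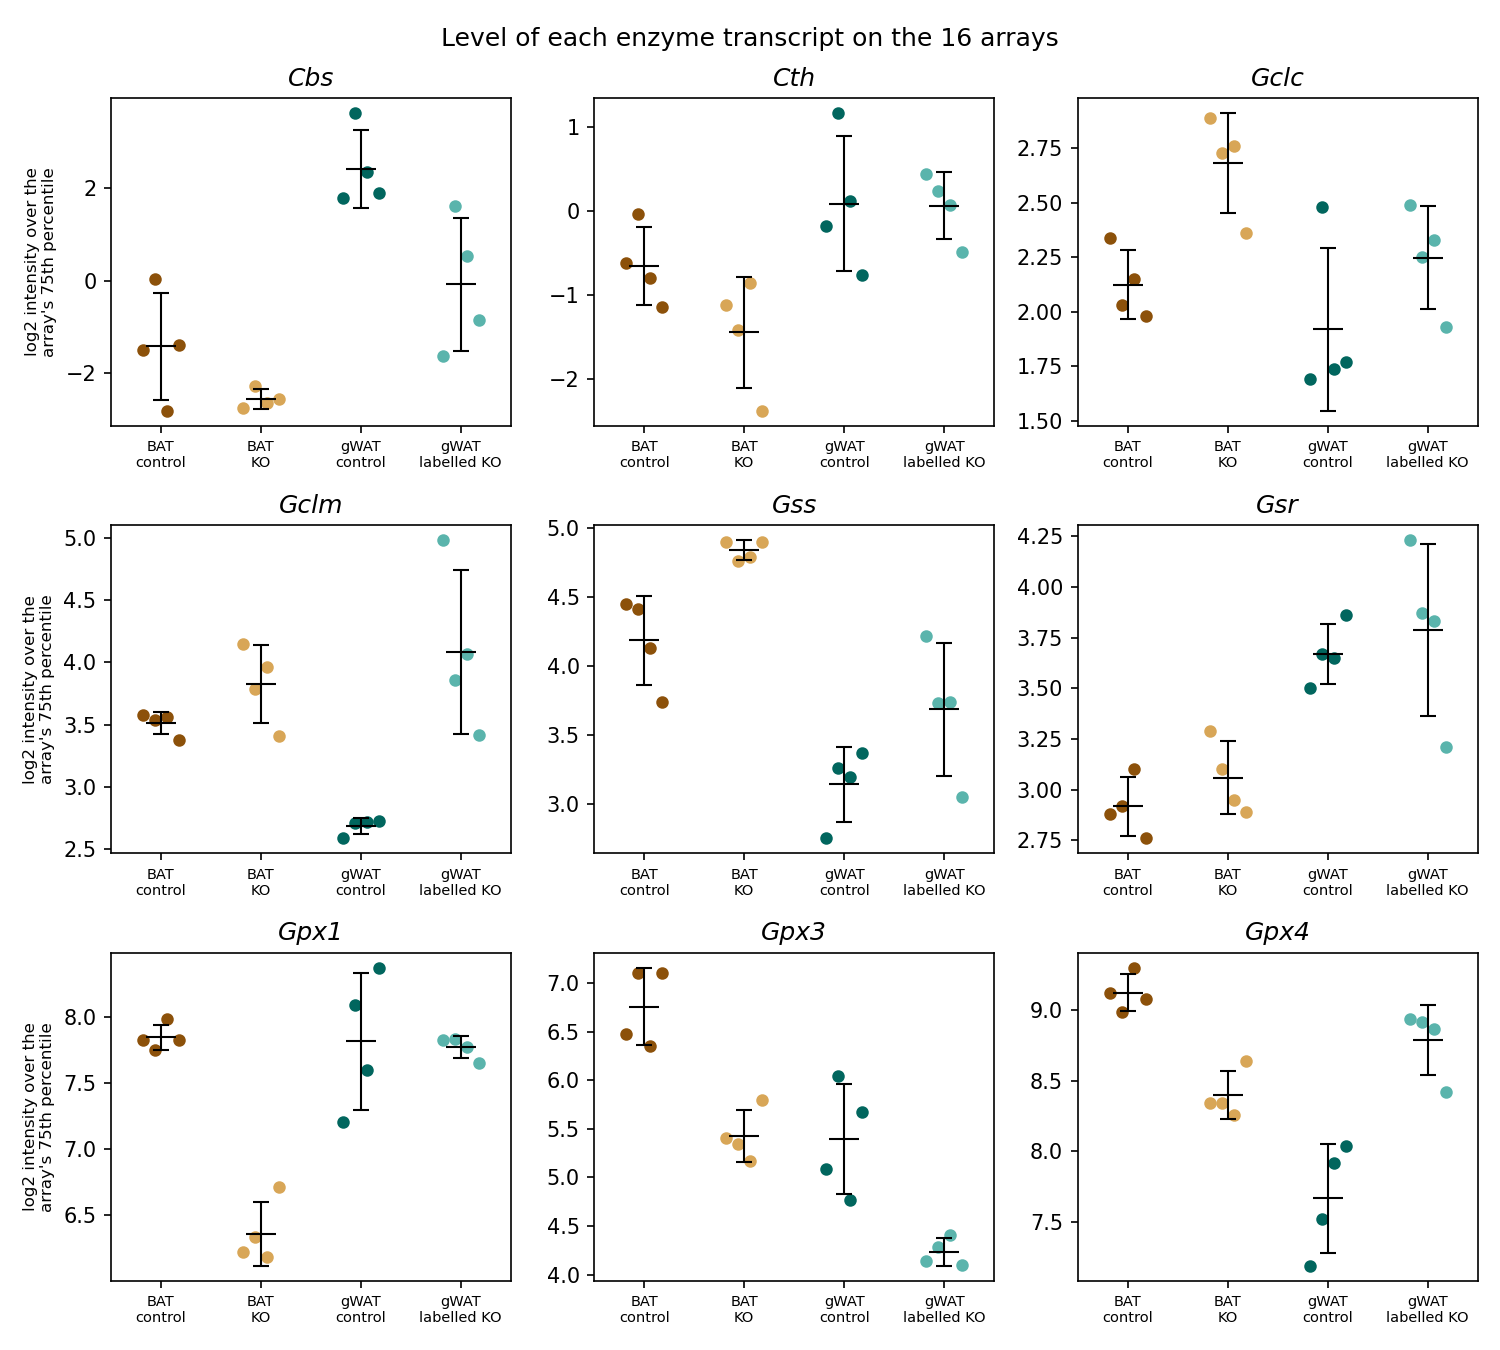
Level of each transcript (vertical axes, log2 intensity over the 75th percentile of the array) in the 4 groups, with coloured points for the 4 arrays of a group and black bars for their mean and SD. Gpx1 is low only in BAT KO, Gpx4 is lowest in gWAT controls, and Cbs is higher in gWAT controls than in the other groups.

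Without both BAT arrays high in muscle genes 5 members were called, with Cth in and Gclc out, beside 7280 of all 14315 genes tested. In gWAT, leaving out both arrays high in epididymal genes left 0 of 9 members called by limma, beside 838 of all 14162 genes. Of the members 4 had an unadjusted p under 0.05 (adjusted p of 0.0563 to 0.0908 for the same 4 genes). Slide as a fixed block also left 0 members (3 at an unadjusted p under 0.05), beside 184 of all 14149 genes. That block sets the labelled KO arrays against control replicate 4 alone, which is assumed to vary like the other arrays. Leaving out the 4 arrays high in liver genes left Cbs alone called, beside 92 of all 14286 genes. The liver covariate kept all 4 calls, beside 2282 of all 14149 genes.

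The change itself differed between the tissues for 3 of the 9 genes, all of them with a higher change in gWAT, beside 48.3% of the 14820 genes tested (27.4% higher and 21% lower). The gWAT change minus the BAT change was 1.85 for Gpx4 (SE 0.25, adjusted p = 6.02e-05), 1.44 for Gpx1 (SE 0.28, adjusted p = 0.000896) and 1.08 for Gclm (SE 0.35, adjusted p = 0.0189). For the other 6 it lay between -1.36 for Cbs (adjusted p = 0.245) and 0.77 for Cth (adjusted p = 0.27). Gpx3 differed by 0.17 (95% interval -0.59 to 0.94). The Gpx4 call held in every setting run, Gpx1 was lost with slide as a fixed block (0.87, adjusted p = 0.124), and Gclm was lost in 8 of 18 settings other than leaving out 1 array, the block and quantile normalization among them.

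Between the depots of control mice, 6 of the 9 genes differed, 4 higher and 2 lower in BAT, beside 64.7% of 14304 genes (35.4% higher and 29.3% lower). The depots did not overlap for these 6, beside 60.8% of all genes. BAT stood above gWAT for Gpx4 (1.46, SE 0.19, adjusted p = 0.000216), Gpx3 (1.36, SE 0.30, adjusted p = 0.0041), Gss (1.04, SE 0.20, adjusted p = 0.0017) and Gclm (0.83, SE 0.10, adjusted p = 0.000122). It stood below gWAT for Cbs (-3.83, SE 0.61, adjusted p = 0.000611) and Gsr (-0.75, SE 0.12, adjusted p = 0.000727). Without both control arrays high in liver genes the Cbs difference was -3.54 (adjusted p = 0.00594). Gpx1 stood at 7.84 and 7.81 in the depots (difference 0.03, 95% interval -0.52 to 0.57), though quantile normalization gave -0.85 (adjusted p = 0.00208). The Gpx3 call was lost with quantile normalization, with or without normexp, and the Gss call with slide as a fixed block. The Gpx4 call was kept in the 17 settings other than leaving out 1 array, with differences of 0.40 to 1.79.

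Among KO arrays 6 of the 9 differed, 2 higher and 4 lower in BAT, beside 46.1% of 14449 genes (23.4% higher and 22.7% lower). For 5 of the 9 the depots did not overlap, beside 43.1% of all genes, and these arrays also entered the genotype comparisons. Gpx1 was 1.41 lower in BAT than on the gWAT arrays labelled KO (log2 difference -1.41, SE 0.14, adjusted p = 8.77e-05), Cbs -2.47 (adjusted p = 0.0102), Cth -1.51 (adjusted p = 0.00612) and Gsr -0.73 (adjusted p = 0.0205). Gpx3 was 1.19 higher (adjusted p = 0.000405) and Gss 1.16 higher (adjusted p = 0.00298). Gclm, at 3.83 and 4.09, and Gpx4, at 8.40 and 8.79, no longer passed (adjusted p = 0.527 and 0.0614). Gpx4 was called lower in BAT in 5 of the 16 settings other than leaving out 1 array, quantile normalization and spike-in scaling among them. Its difference ran from -0.59 to -0.29 over these 16. Each of these groups lay on a slide of its own for this contrast, so slide and tissue cannot be told apart.

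In the order of group means, neighbours mostly overlapped. Cbs ran from gWAT controls (2.42, SD 0.85) down to BAT KO (-2.55, SD 0.21), and only its first step was free of overlap. Gpx4 ran from BAT controls (9.12) over gWAT labelled KO (8.79) and BAT KO (8.40) to gWAT controls (7.67), with overlap only between the middle groups. Gpx1 was level in 3 groups, at 7.84, 7.81 and 7.77, and apart from them in BAT KO at 6.36. Gpx3 overlapped only between BAT KO (5.43) and gWAT controls (5.40). Gclc overlapped at every step.

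The scaling of the arrays moved the values in both tissues. In BAT, scaling to Actb and Rplp0 moved the median of all genes from -0.08 to -0.67, and scaling to the spike-in RNA moved it to 0.46. Both scalings shift all genes of an array alike, so the order of the members was kept. Under Actb and Rplp0, Gclc became -0.03 and Gss 0.06 and neither passed, and both stayed above the median of all genes. Gpx4 became 0.00055 with quantile normalization and 0.05 with normexp background correction and quantile normalization, and -0.19 (adjusted p = 0.162) with the spike-in. Gpx1, between -2.08 and -0.95, and Gpx3, between -1.92 and -0.79, were called lower in BAT in each of the 16 settings other than leaving out 1 array. In gWAT, Gclm and Gpx4 were higher and Cbs lower under all scalings, with spike-in scaling moving the median of all genes from 0.05 to 0.44. The count of genes called ran from 1384 to 5838 over the scalings in gWAT and from 8423 to 10818 in BAT.

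**Figure D4:**
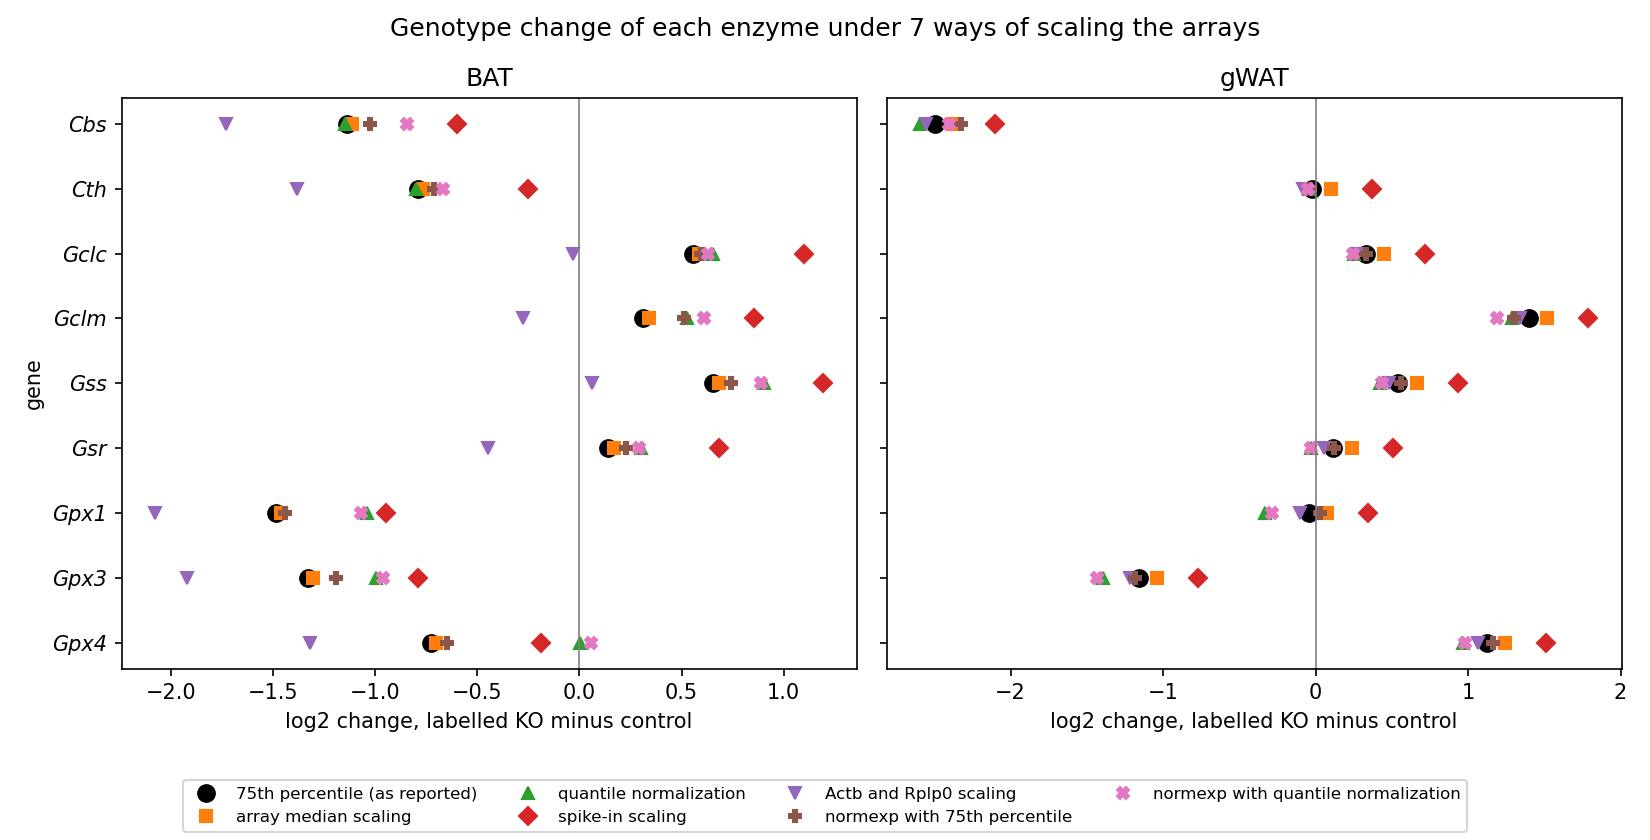
Change of each enzyme transcript (horizontal axes, log2, labelled KO minus control) in BAT and gWAT under 7 ways of scaling the arrays, black circles being the values reported. In BAT the Actb and Rplp0 scaling lies furthest left for each gene and the spike-in furthest right for each gene but Gpx4, whose points run from -1.32 to 0.05 with normexp and quantile normalization furthest right.

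The surrounding pathway was described with 81 further genes of cysteine and glutathione metabolism, of which 72 were tested in BAT. There 12 were higher and 42 lower, 75% called beside 61.5% of all genes, with a median change of -0.67. Spike-in scaling made that 23 higher and 24 lower, beside 7071 higher and 1782 lower of all 14280 genes. Scaling to Actb and Rplp0 made it 9 and 55, beside 1917 and 8901 of all genes. The spike-in counts of single lists below stand beside the same 7071 higher and 1782 lower. The list was not independent of earlier results of these data.

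Cysteine catabolism and sulfide oxidation had 8 of 9 genes lower (beside 34% of all genes), none higher and a median of -1.51, while spike-in scaling gave 6 lower and 1 higher. Cdo1, the dioxygenase that oxidizes cysteine, read 7.10, 7.21, 7.27 and 7.23 in controls and 5.18, 5.07, 5.24 and 6.03 in KO. It fell by 1.82 (adjusted p = 9.67e-05), and KO replicate 4 was the nearest to controls. Tst, a mitochondrial sulfurtransferase, changed by -1.79 (adjusted p = 0.00015), Suox, sulfite oxidase, by -1.71, and Csad, which makes hypotaurine, by -1.51. Ado, at 0.09, did not pass.

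Of 3 genes of cystine and cysteine uptake, 1 was higher (Slc7a11) and 1 lower, beside 27.5% and 34% of all genes, and the lowest change was -1.76. Breakdown held both rises and falls. Chac1, which degrades glutathione in the cytosol and is a known target of the amino acid stress response, read 0.08, 0.54, -0.70 and 0.95 in BAT controls and 3.82, 3.32, 4.62 and 4.52 in KO. The rise of 3.85 (SE 0.40, adjusted p = 7e-05) left the groups more than 2 units apart. Slc7a11, the cystine importer, was not well above background on any control array and was at least 2.05-fold higher in KO (adjusted p = 0.000124), a bound set by the lowest signal above background. Anpep, an aminopeptidase that also takes part in cutting cysteinylglycine, rose by 2.15 (adjusted p = 1.48e-05) and Dpep2 by 2.88 (adjusted p = 8.67e-05), the latter above background on 3 of 4 control arrays. Ggt5, above background on 1 of 4 control arrays, gave a difference of 1.44 (adjusted p = 0.0266) with overlapping groups. Its call was kept in 4 of the 8 fits without a single array and in 8 of 15 other settings. Like Slc7a11, Dpep2 and Ggt5 entered the test through their KO arrays alone. Chac2, the constitutive relative of Chac1, changed by -0.87 and Oplah, 5-oxoprolinase, by -1.24. Breakdown genes numbered 4 higher and 3 lower of 10, beside 27.5% and 34% of all genes.

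Among transferases, which attach glutathione to reactive compounds, 15 of 23 were lower and 3 higher (beside 34% and 27.5% of all genes), with a median of -0.66 (7 lower and 5 higher with spike-in scaling). Their probes can cross-react between near-identical family members, so single genes are uncertain. Gsto2 changed by -2.22 (adjusted p = 2.57e-05), Gstz1 by -2.08 (adjusted p = 5.43e-05) and Gstk1 by -1.56. Gsta3 rose by 2.33 (adjusted p = 0.00438). Gsta2, above background on 1 of 4 control arrays, was higher (adjusted p = 0.000116). Its difference ran from 2.48 to 5.51 over the settings other than leaving out 1 array. Hpgds, above background on no control array, was at least 3.03-fold higher (adjusted p = 0.000102). Both entered the test through their KO arrays alone, so the filter favoured a higher value. Both are counted among the transferases called higher.

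The remaining groups were small, and their counts under the 75th percentile scaling stand beside 34% of all genes lower and 27.5% higher. All 4 glutaredoxins, which use glutathione to reduce protein disulfides, were lower by 0.68 to 0.97 (log2 changes of -0.97 for Glrx2, -0.80 for Glrx, -0.72 for Glrx3 and -0.68 for Glrx5), of which 1 passed with spike-in scaling. Of 5 genes that make and insert selenocysteine, the residue at the active site of Gpx1, Gpx3 and Gpx4, 4 were lower, led by Sephs2 at -1.25 (adjusted p = 6.77e-05), and Eefsec was higher at 0.65 (2 lower and 1 higher with spike-in scaling). Gpx8, a peroxidase of the endoplasmic reticulum that does not contain selenocysteine, read 5.83, 6.31, 5.18 and 5.83 in controls and 2.66, 2.88, 2.57 and 3.15 in KO, a change of -2.98 (adjusted p = 2.18e-05). Gpx2 was higher at 0.57. Detoxification enzymes were split, with Hagh at -1.18, Glo1 at -0.85 and Adh5 at -0.70 and Esd at 1.08. Mtr, methionine synthase, rose by 1.53 (adjusted p = 1.16e-05), while Gnmt changed by -1.52. The 3 glutathione transporters changed by -0.25 to 0.34 and did not pass.

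In gWAT 8 of 72 tested pathway genes were higher and 7 lower (20.8% called, beside 17.8% of all genes) with a median of 0.11. Glrx, lower in BAT, read -0.91, -0.63, -0.66 and -1.05 in gWAT controls and 0.97, 0.57, 0.55 and 0.19 on labelled KO arrays. The groups lay well apart, the difference was 1.39 (adjusted p = 0.00361), and the gWAT change minus the BAT change was 2.19 (adjusted p = 9.32e-06). Gsta4, a transferase for lipid aldehydes, differed by 1.39 (adjusted p = 0.0256), and Slc25a39, the mitochondrial glutathione carrier, by 1.28 (adjusted p = 0.00688). Esd differed by 0.94 (adjusted p = 0.0327) and Gsto1 by 0.81 (adjusted p = 0.0325).

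On the lower side stood Gstt1 at -1.72 (adjusted p = 0.00721), Gstt3 at -1.46 (adjusted p = 0.00379), Csad at -1.09 (adjusted p = 0.00509), Gstz1 at -0.77 (adjusted p = 0.0281) and Ggt5 at -0.56 (adjusted p = 0.0444). When single arrays were left out, the Gstz1 call was kept in 2 of 8 fits and the Ggt5 call in 1 of 8, and over the other settings they were kept in 12 and 5 of 18. Csad and Gstz1 were lower in BAT as well. Gstt1 also read lower there, at 3.58, 3.46, 3.76 and 3.71 in BAT controls and 2.58, 2.77, 2.71 and 2.10 in BAT KO. Gstt3 had BAT means of 0.75 in controls and 0.80 in KO, and Ggt5 read higher in BAT KO. Cdo1 read 6.15, 6.79, 6.94 and 6.90 in gWAT controls and 7.31, 7.24, 7.04 and 6.27 on labelled KO arrays and did not pass. Without the 4 arrays high in liver genes 0 of 73 pathway genes passed in limma (14 at an unadjusted p under 0.05), and the whole table held 92 calls. With slide as a fixed block 1 was higher and 0 lower (13 at an unadjusted p under 0.05), beside 66 and 118 of all 14149 genes. With liver genes as a covariate 6 were higher and 5 lower, beside 1300 and 982 of all genes.

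**Figure D5:**
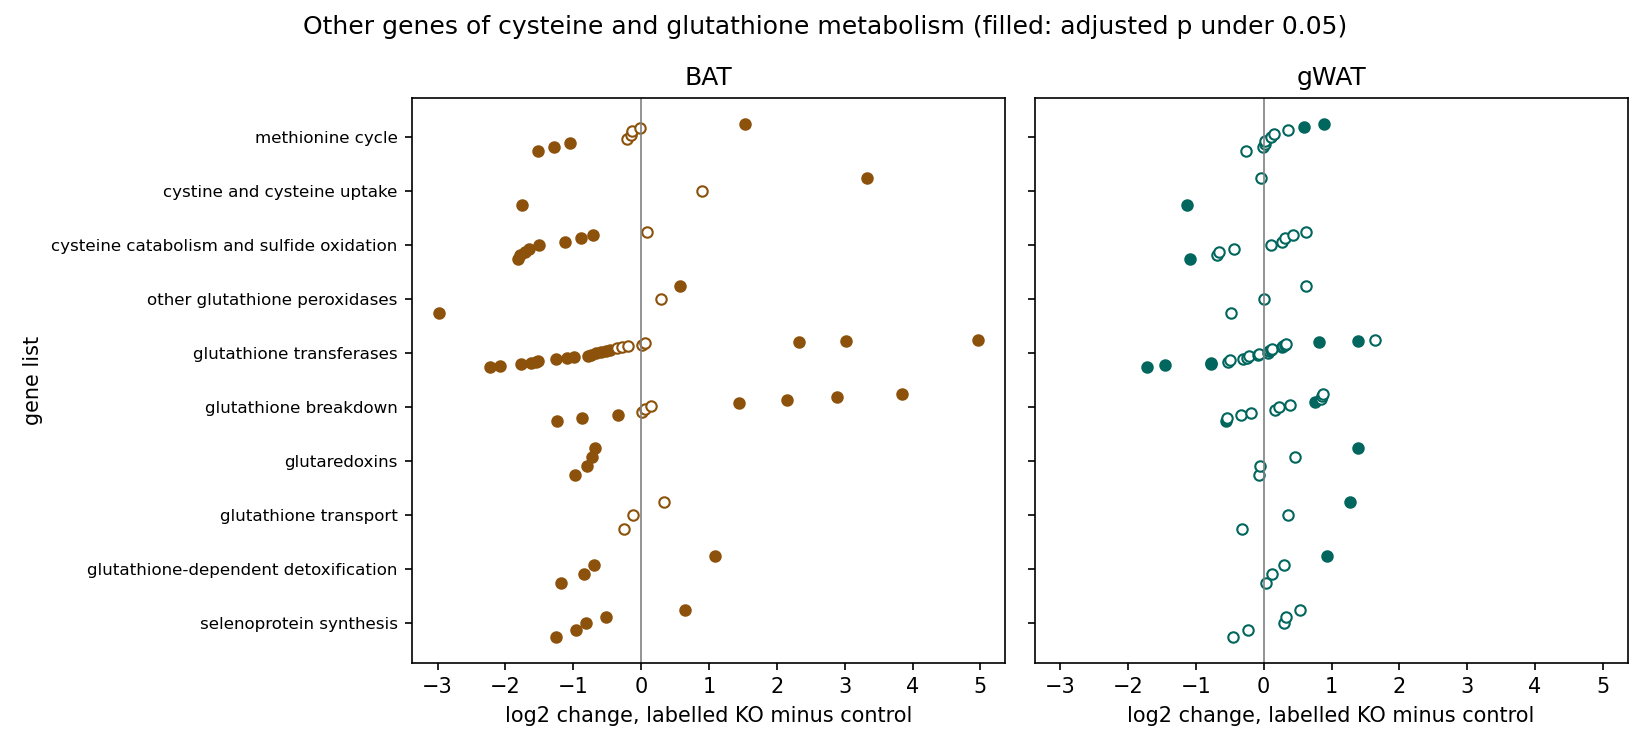
Change of 72 further genes tested in each tissue (horizontal axes, log2, labelled KO minus control) by list (vertical axis), with filled points for an adjusted p under 0.05. In BAT the cysteine catabolism genes lie left of 0 with the exception of Ado, and the points furthest right include Gsta2, Hpgds and Slc7a11, whose control arrays were at or near background, so that their position is a fitted value and not a bound.

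Replicate 4 of the KO groups, the 14-week animals, often stood at the edge of its group. In BAT it was the KO array nearest the control mean for 6 of 9 members (Gclc, Gclm, Gsr, Gpx1, Gpx3 and Gpx4), and it also had the highest Pgam1 of its group (6.43) and the highest thermogenic sum (2360). In gWAT it was the lowest labelled KO array for 8 of 9 members, all but Cbs, and had the highest macrophage sum (243) and the lowest thermogenic sum (129). Age and animal cannot be told apart in a single array.

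The genes whose levels followed each member most closely over the 16 arrays, among 14794 genes, are given as a description, since all share the same 16 arrays and the contrast of tissue and genotype. Cbs followed Ppp4r4 (r = 0.939) and Nnmt (r = 0.932), and Cth followed Fzd3 (r = 0.855) and the alcohol dehydrogenase Adh4 (r = 0.851). Gclc was closest to Acox2 (r = 0.919), Gclm to Usp20 (r = 0.949), Gss to Grpel2 and Ebna1bp2 (both r = 0.969) and Gsr to Ube2e2 (r = 0.952). Gpx1 was closest to Amy2a5 (r = 0.971) and Gpx4 to Cox19 and Ccdc124 (both r = 0.982). Gpx3 was closest to Sephs2 (r = 0.933), which makes the selenium donor for selenocysteine.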

How the data were processed

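BAT and gWAT RNA from mice was hybridised to 16 1-colour Agilent mouse arrays. Per the file headers, the authors' Agilent Feature Extraction 10.7.1.1 (protocol with within-array background and spatial correction) gave a processed intensity per spot. The deposited table of normalized signal, which the authors made with GeneSpring, lay close to the scaling used here. Its values were higher by a median of 0.0012 to 0.0050 log2 units per array. The 9 enzymes and all gene lists were chosen with earlier results of these data known, and the liver list after its values were seen.

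From the deposited intensity, control spots and outlier spots were left out, spots of a probe averaged, and log2 of the intensity taken over the 75th percentile of each array (401 to 916 intensity units). Of 56605 probes, 35886 had a RefSeq accession and 32994 of these a gene symbol from the RefSeq table, giving 22911 genes, and 23611 probes stayed unnamed. A gene was read from its brightest probe. No spot was saturated, and 50.0 to 62.2% of probes were well above background. The number of arrays, 4 per group, limits the precision. A bound ("at least") sets the mean of the bright group against the lowest signal well above background of each dim array.

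Tests used limma 3.58.1 (R 4.3.3), fitted over the groups compared, with Benjamini-Hochberg adjustment over all genes tested. The fit was tested on simulated data. Alternatives were other scalings, background correction with normexp (offset 50) on median spot signals, since no mean signal was in the columns used, filters, probe averaging, slide as a fixed or random block, the replicate number as a block, 1 fit of all arrays, the methods' t-test, and leaving out arrays. Besides the 9 members and Pgam1, the text names pathway genes called with no overlap of groups, up to 5 each way by size, and those measured in part, and other list members only as examples chosen after their values were seen. The 3 slides were scanned over 2 days. The labels give 100 ng of input RNA.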

Additional observations from a re-analysis of the deposited data

Results flagged for a closer look

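Of 36 groups of 4 arrays tested for a single far value, 3 had a gap to the nearest array, as a share of the group's whole range, above Dixon's 95% critical value, and chance flags about 1 in 20 groups. Gclc in gWAT controls had a gap of 0.896 of its range, with replicate 2 high at 2.48, the array with the highest liver sum (706). Gclm in gWAT controls had 0.865, with replicate 1 low at 2.59 in a group whose SD was 0.07. Gpx4 on the gWAT arrays labelled KO had 0.858, with replicate 4, the 14-week animal, low at 8.42. The genotype change differed between tissues by 1.08 for Gclm, 1.44 for Gpx1 and 1.85 for Gpx4 (gWAT change minus BAT change, limma interaction), with the Pgam1 level itself differing by 2.69 in the same contrast.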

How the results depend on the processing

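Over the single-gene values recomputed, 1672 kept their direction and side of the threshold, 140 lost and 38 gained significance, and 46 turned sign. The cause was not tested. In BAT the count of members called was 8 with normexp and the 75th percentile (8915 genes) and 5 to 6 when single arrays were left out (7884 to 8720 genes). Scaling to Actb and Rplp0 turned the BAT change of Gclc (-0.033), Gclm (-0.28) and Gsr (-0.45) and the tissue difference of Gclc (0.30), Gss (0.42) and Gsr (0.51). Quantile normalization turned BAT Gpx4 (0.00055, or 0.055 with normexp), gWAT Gsr (-0.032, or -0.029 with normexp), the tissue difference of Gpx3 (-0.40, or -0.47 with normexp) and Gpx1 between control depots (-0.85, or -0.82 with normexp).

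In gWAT the genes called numbered 1384 with array median scaling, 5838 with the spike-in, 1138 without a filter on dim probes, 184 with slide as a fixed block, 1087 with the replicate block, 4040 in 1 fit of all arrays, and 1618 with the methods' t-test (4673 unadjusted). Added after seeing the data, they were 838 without both arrays high in epididymal genes and 92 without 4 arrays high in liver genes. Leaving out single arrays gave 1080 to 3211 genes and 2 to 4 members: 1080 genes without labelled KO replicate 1, 1283 without replicate 2, 1144 without replicate 3, 1188 without control replicate 2 and 1581 without control replicate 3. The members called were 2 without the filter, 2 with the t-test, 0 with slide as a fixed block, 0 without the epididymal arrays and 1 without the liver arrays. In limma 3 and 4 members had an unadjusted p under 0.05 in the settings with 0.

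gWAT Cth turned to 0.10 with median scaling, 0.37 with the spike-in, 0.82 with the slide block, 0.30 without the liver arrays, and ran from -0.30 to 0.34 without single arrays (0.34 without control replicate 2, 0.16 without labelled KO replicate 4). gWAT Gsr turned to -0.077 with the slide block and -0.034 without the liver arrays, and ran from -0.034 to 0.31 without single arrays (lowest without labelled KO replicate 1). gWAT Gpx1 turned to 0.077 with median scaling, 0.35 with the spike-in and 0.027 with normexp, and ran from -0.25 to 0.14 without single arrays (above 0 without control replicate 2 or 4).

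The tissue difference gave 3265 genes and 1 member with the slide block, and 6504 to 7610 genes and 3 to 3 members without single arrays. Without single arrays it ran from -0.29 to 0.10 for Gss (above 0 without BAT control 4 or gWAT labelled KO 4), from -0.18 to 0.17 for Gsr (above 0 without BAT control 4, BAT KO 1, gWAT control 4 or gWAT labelled KO 4) and from -0.037 to 0.39 for Gpx3 (below 0 without gWAT control 3). Gsr turned to 0.067 with median scaling and 0.034 without both muscle arrays. Between control depots single arrays left out gave 8464 to 9134 genes and 6 to 7 members. Gclc turned to -0.017 and Gpx1 to -0.19 with the spike-in, and Gpx1 to -0.0062 with normexp, -0.18 without the epididymal arrays and -0.14 without the liver arrays, running from -0.18 to 0.21 without single arrays (below 0 without BAT control 3 or gWAT control 1 or 3). Between KO depots the range was 5294 to 7408 genes and 5 to 7 members, with 3692 genes without the liver arrays, and Gclm ran from -0.48 to 0.041, above 0 without gWAT labelled KO 1.

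The share of higher genes among those called was 44.8% in BAT (79.9% with the spike-in, 17.7% with Actb and Rplp0) and 56.0% in gWAT (93.8% with the spike-in, 71.0% with median scaling, 35.9% with the slide block). Whether replicate numbers pair the samples was not settled. The correlation of deviations of same-numbered arrays was 0.000354 to 0.219 between BAT groups and -0.142 to 0.435 between gWAT groups. It was -0.0726 to 0.224 between control depots and -0.185 to 0.295 between KO depots, with replicate 4 the one below 0 in both depot pairs. Across depots the same number gave the closest match for control replicates 1 and 2 and KO replicates 1 and 3, and for no other. Between genotypes it did so for replicates 2 and 3 in BAT and replicate 2 in gWAT. With the replicate block 8610 genes passed in BAT, where Cbs (-1.14, adjusted p = 0.0458) and Cth (-0.79, adjusted p = 0.0356) then passed in limma. Cth also passed in the tissue difference (0.77, adjusted p = 0.0446) and between control depots (-0.74, adjusted p = 0.0148), and Gclc between KO depots (0.43, adjusted p = 0.0272). In gWAT the Pgam1 difference (0.95, adjusted p = 0.0514) and those of Gsta4, Esd, Gsto1, Gstz1 and Ggt5 no longer passed.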
